A study of Homo sapiens with 6 samples.

Results

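The genes described here are the cytosolic heat shock proteins and their co-chaperones, taken by symbol from a gene expression table of A375 melanoma cells. The rule took every HSPA, HSPB, HSP90A, DNAJA, DNAJB, DNAJC, CCT and BAG symbol that carries a number, together with HSPD1, HSPE1, HSPH1, HSF1 and HSF2. Of 94 matching symbols it left out 5 chaperones of the endoplasmic reticulum, 1 antisense gene and 12 pseudogenes, which left 76 of the 18539 genes in the table. The label "cytosolic" does not hold for every member, since 8 of them encode mitochondrial proteins and 8 encode proteins of the endoplasmic reticulum. The rule also takes DNAJC3-DT, a noncoding transcript beside DNAJC3 that encodes no chaperone, and DNAJC25-GNG10, a readthrough transcript.

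A375 is a human malignant melanoma cell line. Its total RNA was sequenced in 6 libraries, 3 from cells carrying a control hairpin (shControl) and 3 from cells carrying a hairpin against the coding region of MMP9, a secreted matrix metalloproteinase (shMMP9). The hairpins were carried by the lentiviral vector pLKO.1, packaged in 293T cells, and infected cells were selected with puromycin, so both groups had been through infection and selection. The MMP9 group rests on 1 hairpin sequence, and the labels do not say whether replicates came from separate infections or cultures, so each p-value measures only the spread between these libraries.

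Molecular chaperones bind unfolded or partly folded proteins and help them reach their native shape. HSP70 proteins (HSPA genes) work in cycles driven by ATP, with J-proteins (DNAJ genes) that deliver clients and start hydrolysis, and with nucleotide exchange factors (HSPH1 and BAG genes) that release them; HSP90, the chaperonins CCT and HSP60 and the small heat shock proteins act on other clients or at other steps. Many of these genes are induced by heat shock factor 1 (HSF1), which binds as a trimer to heat shock elements, inverted repeats of the unit GAA, and melanoma cells depend on HSP90 for the stability of kinases such as mutant BRAF.

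Values below are scaled counts, obtained by undoing the deposited log2(scaled count + 1), and changes are shMMP9 minus shControl on that same log2 scale, which understates the change of genes at low levels. A gene was called when the Benjamini-Hochberg adjusted p of limma, a linear model with shared variance information across genes, was under 0.05 over the 17194 genes tested. The libraries held an estimated 21854123 to 28005552 reads. MMP9 itself was 26.1, 24.3 and 28.7 in shControl and 16.2, 14.6 and 17.1 in shMMP9, a ratio of 0.605. Of the melanocyte markers, 7 of 9 were listed; SOX10 was at 358 or more in every library, while MLANA was at 0.753 or less and TYR and DCT were not among the listed genes. The marker sums moved with the groups: melanocyte markers summed to 523 to 551 in shControl and 1342 to 1417 in shMMP9, the 3 listed keratinocyte markers of 6 to 70.0 to 81.6 and 127 to 136, the 7 fibroblast markers to 27.6 to 29.7 and 12.1 to 13.3, and the 2 listed leukocyte markers of 5 to 2.46 to 2.91 and 7.24 to 7.69. The sums do not stand for each marker. Mean MITF fell from 35.5 in shControl to 27.7 in shMMP9, and mean KRT5 from 0.370 to 0.0367. Mean PDGFRA rose from 2.16 to 5.46, and PMEL was not called (0.03). PTPRC and CD3E, which mark leukocytes and T cells, were not listed, and the part of these differences in the chaperone results was not tested. In bulk RNA, fewer cells expressing a gene and less RNA per cell cannot be told apart.

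The chaperone genes moved in both directions, and their changes were small. Of the 76 members 74 passed the filter on low values; 17 of these were higher in shMMP9 (23.0%) and 24 lower (32.4%), while 33 were not called. Among all tested genes 25.0% were higher and 32.5% lower, so the 55.4% of members called stood near the background of 57.5%. Changes of 1.5-fold or more were found in 5 members (6.76%), 1 upward and 4 downward, against 21.1% of all tested genes (8.43% upward and 12.7% downward), with folds taken from the log2(scaled count + 1) scale. The median change was -0.04 for members and -0.05 for all tested genes, and single members ranged from -0.81 (DNAJB5) to 0.75 (HSPH1). The 2 groups of libraries did not overlap for 43 members (58.1%), against 62.7% of all tested genes; 18 members lay wholly above in shMMP9 (27.6% of all tested genes did) and 25 wholly below (35.1%). Reads assigned to members made up 1.41%, 1.45% and 1.42% of the shControl libraries and 1.42%, 1.43% and 1.39% of the shMMP9 libraries, so the summed share differed by less than the spread between libraries. With scaling by the median of ratios or by total reads, which raised changes by a median of 0.057 and 0.056, the split was 19 higher and 20 lower under each.

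**Figure D1:**
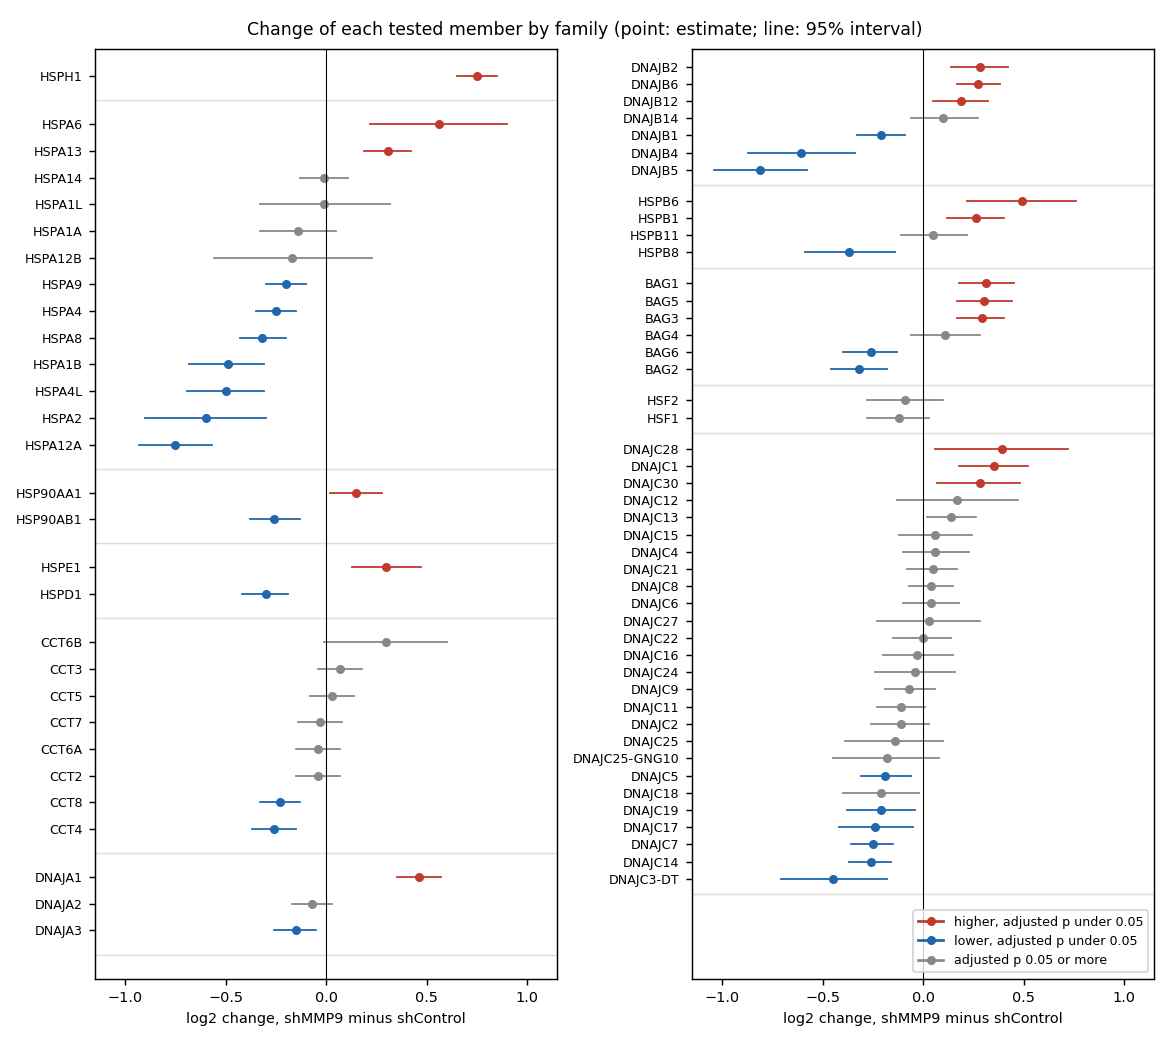
Change of each tested member on the log2 scale (shMMP9 minus shControl, n = 3 libraries per group), grouped by family, with its 95% interval as a line. HSPH1 (0.75) lies farthest to the right and DNAJB5 (-0.81) farthest to the left; the HSPA family holds 7 of the 24 lower members, and most DNAJC members lie close to 0.

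Heat shock elements are shown first, because HSF1 is the regulator that many of these genes share. RefSeq promoter windows (GRCh38.p14, 250 bases before to 50 after an annotated start) were found for 67 members; BAG4, CCT6A, DNAJC1, DNAJC22, DNAJC24, HSF1, HSPA12B, HSPA14 and HSPB11 had none. The element was searched as 3 inverted units 2 bases apart, which reads GAA, TTC, GAA on 1 strand and TTC, GAA, TTC on the other; both were searched, so both strands were covered. It was present in 7 of the 67 members (10.4%) and in 166 of 27305 genes with a window (0.608%). The shorter form with 2 units, GAANNTTC or TTCNNGAA, which also lies inside the longer one, was present in 24 of 67 members (35.8%) and in 16.2% of all genes. Each stretch below holds 30 bases and is written 5′ to 3′ on the strand of its gene, with the matching letters in capitals; the genes are in the order of their change, from the highest to the lowest.
HSPA6: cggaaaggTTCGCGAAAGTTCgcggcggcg
DNAJA1: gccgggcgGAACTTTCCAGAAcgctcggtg
DNAJB6: agagccgaGAACCTTCGCGAAggtggggcg
HSP90AA1: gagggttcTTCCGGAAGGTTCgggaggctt
HSP90AB1, far: ggagcaggTTCTGGAAGATTCatgggctcc
HSP90AB1, near: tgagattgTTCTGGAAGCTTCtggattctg
HSPD1: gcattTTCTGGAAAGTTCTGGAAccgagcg
HSPA8, far: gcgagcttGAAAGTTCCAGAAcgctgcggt
HSPA8, near: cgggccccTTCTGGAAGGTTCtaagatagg

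These stretches lie at chr1:161524458-161524487 (HSPA6, plus strand), chr9:33025268-33025297 (DNAJA1, plus), chr7:157336865-157336894 (DNAJB6, plus) and chr14:102087111-102087140 (HSP90AA1, minus). Those of HSP90AB1 are chr6:44247770-44247799 and chr6:44247823-44247852 (plus), that of HSPD1 is chr2:197500061-197500090 (minus), and those of HSPA8 are chr11:123062345-123062374 and chr11:123062170-123062199 (minus). In GENCODE 29 the HSP90AB1 and DNAJB6 stretches are intronic, and that of HSPA6 lies within AL590385.2. Those of HSPA8, HSP90AA1 and DNAJA1 fall in annotated exons of the same gene, and that of HSPD1 in exons of HSPD1 and HSPE1. The HSPD1 stretch lies before the annotated HSPD1 start at 197499840 but after the one at 197500274. HSPA8 and HSP90AB1 each hold 2 elements, and in HSPD1 a pair of overlapping matches forms a run of 4 inverted units. The element was present in genes of either direction: HSPA6, DNAJA1, DNAJB6 and HSP90AA1 were higher in shMMP9, and HSP90AB1, HSPD1 and HSPA8 were lower. Of the 60 members with a window and no such match, 12 were higher, 21 lower, 25 not called and 2 not tested. Among all tested genes 25.0% were higher and 32.5% lower, 57.5% called in all. Among those of them that held only the shorter form, HSPB1 and HSPB6 were higher. DNAJB4, CCT4, HSPA4L, HSPA9, HSPA1B, BAG2, HSPB8 and DNAJB1 were lower, and the others, HSPA1A among them, were not called or, for DNAJA4, not tested. A match describes letters in a window and does not show that a factor binds there. Likewise, the lack of a match does not show that a gene has no element, since only exact letters within the window were searched.

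**Figure D2:**
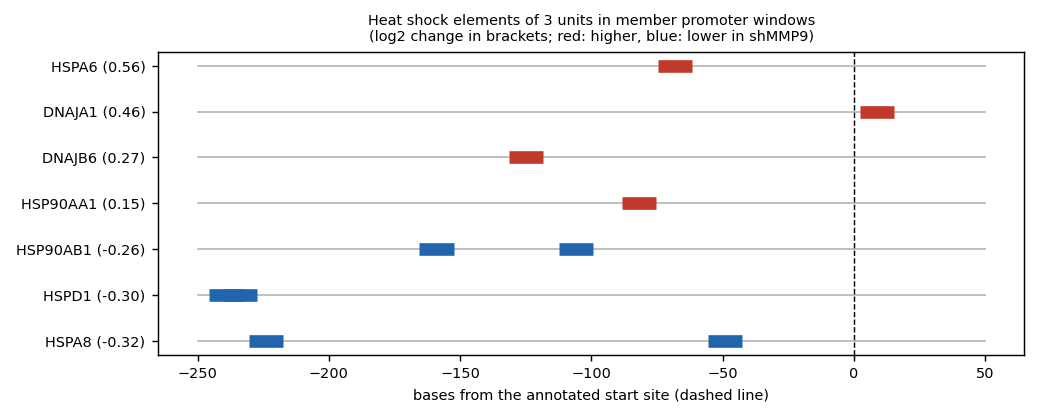
Position of heat shock elements of 3 units in the promoter windows of the 7 members that hold one, in bases from the annotated start (dashed line), with the log2 change of the gene in brackets. Red marks the 4 genes higher in shMMP9 and blue the 3 lower; 2 of the genes carry separate elements, and both of these were lower.

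The heat shock factors were not called. HSF1, the main activator of the heat shock response, was 96.7, 116 and 111 in shControl and 97.5, 92.7 and 107 in shMMP9. Its groups overlapped, and its change of -0.12 (95% interval -0.28 to 0.03, adjusted p = 0.160) missed the threshold; without shControl replicate 1 it was -0.20 with an adjusted p of 0.00723. HSF2, a related factor that can form mixed trimers with HSF1, was 15.5, 15.6 and 14.4 against 14.3, 12.9 and 15.6, also overlapping (-0.09, adjusted p = 0.419). Since HSF1 is controlled mostly at the protein level, its RNA does not give its activity.

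Most of the HSP70 genes that were called were lower in shMMP9, the abundant HSPA8 among them. Of 13 tested HSPA genes 2 rose, 7 fell and 4 were not called, beside 25.0% and 32.5% of all tested genes, and their summed scaled counts were 2489, 2628 and 2528 in shControl and 2113, 2121 and 2079 in shMMP9. HSPA8, the constitutive HSC70 that takes part in folding, clathrin uncoating and chaperone-mediated autophagy, was 1399, 1441 and 1384 in shControl and 1144, 1133 and 1110 in shMMP9. All shMMP9 libraries lay below all shControl libraries, and the gene fell by 0.32 (SE 0.0529, adjusted p = 1.81e-04). Per kilobase of exon it went from 522 to 418, the highest level of the family in both groups. HSPA4, an HSP110-type exchange factor, fell by 0.25, and HSPA9, the mitochondrial HSP70 mortalin, fell by 0.20. HSPA13, a microsomal ATPase of the family, rose by 0.31, while HSPA14 (-0.01), HSPA1L (-0.01) and HSPA12B (-0.17) were not called; HSPA12B had an adjusted p of 0.0402 without shMMP9 replicate 1, at a change of -0.41.

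The stress-inducible HSP70 genes HSPA1A (chr6:31815464-31817946) and HSPA1B (chr6:31827735-31830255) sit next to each other and encode nearly the same protein. HSPA1A was 104, 143 and 118 in shControl and 106, 106 and 116 in shMMP9, with overlapping groups (-0.14, adjusted p = 0.194). Without shControl replicate 1 its change was -0.25, with an adjusted p of 0.00537. HSPA1B was 102, 140 and 126 in shControl and 84.9, 85.5 and 88.3 in shMMP9; the groups did not overlap, and it fell by 0.49 (SE 0.0867, adjusted p = 2.95e-04). The split between the 2 genes is uncertain, because 72.6% of all 50-base stretches of HSPA1A and 73.5% of those of HSPA1B occur in another gene, almost all of them in each other. Their sum does not depend on that split: it was 206, 283 and 244 in shControl and 191, 191 and 204 in shMMP9, a ratio of 0.800, with every shMMP9 library below every shControl library. AL671762.1 also overlaps 36.5% of the exon bases of HSPA1B on the same strand.

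HSPA6, the strictly heat-inducible HSP70B′, stayed close to the limit of detection. It was 0.463, 1.01 and 1.23 in shControl and 1.65, 1.74 and 1.88 in shMMP9, from 13 to 51 reads per library, and its groups did not overlap. It rose by 0.56 (SE 0.157, adjusted p = 0.00812), a size set in part by the added constant: with a pseudocount of 0.25 it was 0.87, with 4 it was 0.24, and with limma-voom 1.06. HSPA7, a near copy, shares 45.5% of the 50-base stretches of HSPA6, so reads of the pair are uncertain.

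Several HSPA genes expressed at lower levels fell further than HSPA8. HSPA12A, a distant member with an atypical ATPase domain, was 17.2, 16.2 and 17.9 in shControl and 9.64, 9.79 and 9.83 in shMMP9, and it fell by 0.75 (SE 0.0832, adjusted p = 4.95e-06). HSPA2, best known from the testis, was 6.24, 9.23 and 8.66 against 4.53, 4.68 and 5.58, and fell by 0.60 (SE 0.139, adjusted p = 0.00245). HSPA4L, an HSP110-type relative of HSPA4, was 20.6, 21.9 and 22.5 against 16.2, 15.8 and 13.2 and fell by 0.50 (SE 0.0874, adjusted p = 2.71e-04). In all 3 genes the groups of libraries did not overlap, which also held for 62.7% of all tested genes. They were put together here by the size of their fall, so this follows largely from the choice.

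HSPH1 (HSP105, chr13:31134974-31162388, minus strand), the heat-inducible HSP110 that resets HSP70 by nucleotide exchange, showed the largest fitted rise of any tested member on the log2(scaled count + 1) scale. It was 178, 187 and 177 in shControl and 311, 310 and 295 in shMMP9. The shMMP9 libraries lay far above the shControl libraries, and the gene rose by 0.75 (SE 0.0469, adjusted p = 1.77e-08). It was the single member past 1.5-fold upward on that scale, which understates low genes: the ratio of group means was 1.69 for HSPH1, and 1.95, 2.25 and 1.73 for HSPA6, HSPB6 and DNAJC28, which were called at levels under 2. Leaving out any 1 library gave 0.74 to 0.77. Its relatives HSPA4 and HSPA4L, which share the exchange function, fell. On chromosome 13 as a whole 146 of 321 tested genes were higher (45.5%) and 57 lower (17.8%), with a median change of 0.19. Among all tested genes 25.0% were higher and 32.5% lower, with a median change of -0.05. The part of the chromosome in the HSPH1 change was not tested.

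**Figure D3:**
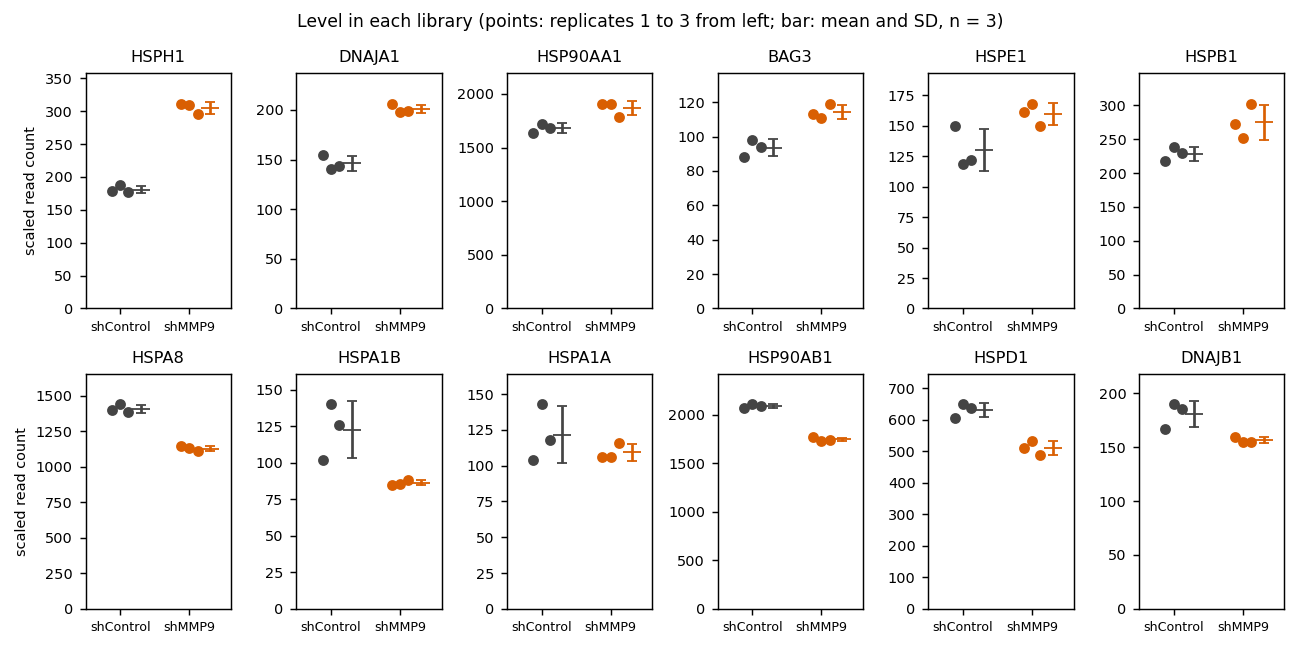
Scaled read count in each library for 12 heat-inducible or abundant members (points: replicates 1 to 3 from left; bar: mean and SD, n = 3 per group). The upper row holds members that were higher in shMMP9 and the lower row members that were lower or, for HSPA1A, not called; HSPH1 and HSPA8 show the groups far apart, while HSPE1 replicate 1 of shControl comes up to the lowest shMMP9 library.

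The cytosolic HSP90 genes, which encode chaperones of kinases and steroid receptors, went in opposite directions. HSP90AB1, the constitutive beta form (chr6:44246166-44253888), was 2067, 2111 and 2091 in shControl and 1768, 1736 and 1743 in shMMP9. Its groups did not overlap and it fell by 0.26 (SE 0.0565, adjusted p = 0.00161), and per kilobase of exon it went from 701 to 587, the highest level of any member in both groups. HSP90AA1, the stress-inducible alpha form (chr14:102080738-102139699), was 1633, 1723 and 1687 against 1902, 1907 and 1789. It was higher in every shMMP9 library (0.15, SE 0.0590, adjusted p = 0.0434), but the call was lost without shControl replicate 3 (adjusted p = 0.101), without shMMP9 replicate 1 (adjusted p = 0.174) and without shMMP9 replicate 2 (adjusted p = 0.162). A pseudocount of 4 (adjusted p = 0.0506) or a fit with no variance trend (adjusted p = 0.0710) also ended it. Pseudogene copies share sequence with both, with 17.5% of 50-base stretches of HSP90AA1 and 18.8% of those of HSP90AB1 found in another gene. The alpha to beta ratio of scaled counts was 0.790, 0.816 and 0.807 in shControl and 1.08, 1.10 and 1.03 in shMMP9.

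HSPD1 and HSPE1 encode HSP60 and HSP10, which together form the mitochondrial chaperonin, and they lie head to head on chromosome 2. HSPD1, which forms the folding chamber, was 606, 650 and 638 in shControl and 511, 532 and 490 in shMMP9 and fell by 0.30 (SE 0.0520, adjusted p = 2.29e-04). HSPE1, the lid, was 150.34, 119 and 122 in shControl and 161, 168 and 150.41 in shMMP9 and rose by 0.30 (SE 0.0777, adjusted p = 0.00506). The HSPE1 groups touched, since shControl replicate 1 all but met the lowest shMMP9 library, whereas the HSPD1 groups were well apart. The HSPE1 start (197500379, plus strand) is 105 and 539 bases from the annotated HSPD1 starts (197500274 and 197499840, minus strand), and the run of heat shock units printed for HSPD1 (197500068 to 197500085) lies 294 to 311 bases from the HSPE1 start. Annotated exons of the pair overlap over 169 bases on opposite strands, where reads cannot be assigned without strand. HSPE1 also shares 27.2% of its 50-base stretches with other genes, most of all with the readthrough HSPE1-MOB4, and HSPD1 shares 24.8%.

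Ratios of partner genes within a library show the opposite movements directly. The 5 pairs were chosen after their values were seen, so the ratios are a description with no test. HSPH1 to HSPA8 was 0.128, 0.130 and 0.128 in shControl and 0.272, 0.273 and 0.266 in shMMP9, a log2 difference of 1.07. HSPE1 to HSPD1 was 0.248, 0.182 and 0.191 against 0.315, 0.315 and 0.307 (0.61). DNAJA1 to DNAJB1, a class A and a class B partner of HSP70, was 0.928, 0.734 and 0.765 against 1.29, 1.28 and 1.29 (0.67). A ratio within a library does not depend on how libraries were scaled. In each of the 5 pairs the groups did not overlap. All pairs but HSPA1B to HSPA1A join a member called higher to one called lower, so this follows largely from the choice of pairs. HSPA1B to HSPA1A fell from 0.984, 0.979 and 1.07 to 0.798, 0.809 and 0.762 (-0.35), with the uncertainty of shared reads given above.

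**Figure D4:**
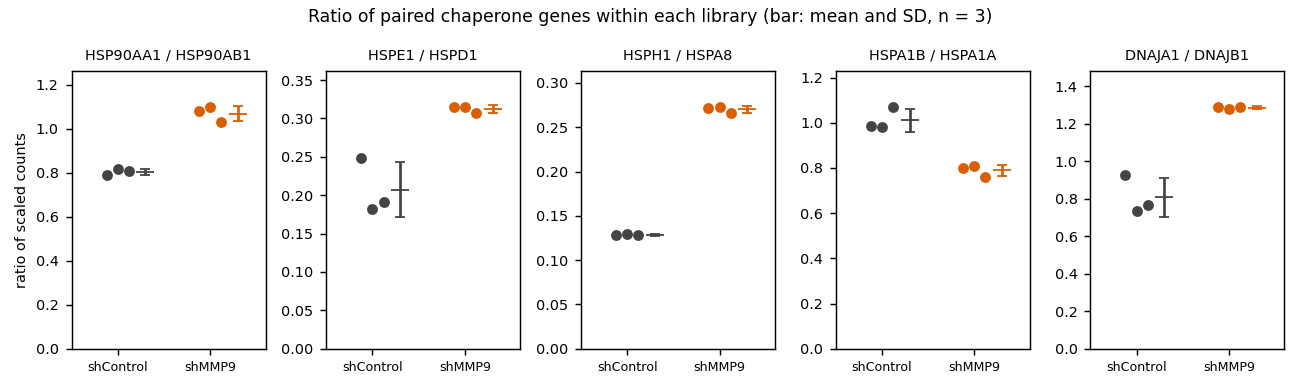
Ratio of scaled counts of paired chaperone genes in each library (points; bar: mean and SD, n = 3 per group). The ratios of HSP90AA1 to HSP90AB1, HSPE1 to HSPD1, HSPH1 to HSPA8 and DNAJA1 to DNAJB1 are higher in all shMMP9 libraries, and that of HSPA1B to HSPA1A is lower.

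Most genes of the CCT chaperonin, the cytosolic ring that folds actin and tubulin, were not called. Of 8 tested CCT genes none rose and 2 fell, beside 25.0% and 32.5% of all tested genes; with median-of-ratios or total-read scaling CCT3 was also higher (0.13, adjusted p = 0.0414 and 0.0315). CCT4 went from 386, 407 and 410 to 346, 342 and 315 and fell by 0.26 (adjusted p = 7.10e-04), and CCT8 went from 254, 257 and 245 to 216, 217 and 211 and fell by 0.23 (adjusted p = 6.12e-04). The other ring subunits were not called: CCT2 (-0.04), CCT3 (0.07), CCT5 (0.03), CCT6A (-0.04) and CCT7 (-0.03), with 95% intervals between -0.15 and 0.18. CCT7 had the highest level per kilobase in shControl (227, and 222 in shMMP9, where CCT3 was at 226). Its scaled count was 437, 477 and 474 in shControl and 450, 457 and 452 in shMMP9. CCT6B, a testis form, stayed at 0.907 or less (0.30, adjusted p = 0.0904) and had an adjusted p of 0.0294 without shMMP9 replicate 2, at a change of 0.42. TCP1, the CCT subunit whose symbol the rule does not match, changed by -0.01 (adjusted p = 0.840).

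J-proteins are the most numerous members, and the directions within each class were mixed. In class A, DNAJA1, the main farnesylated partner of HSC70, was 155, 140 and 143 in shControl and 206, 198 and 199 in shMMP9. The groups did not overlap and it rose by 0.46 (SE 0.0509, adjusted p = 4.99e-06). Its paralogue DNAJA2 was not called (-0.07). The mitochondrial DNAJA3 (TID1) was lower by -0.15 (adjusted p = 0.0143), a call lost without shMMP9 replicate 2 (adjusted p = 0.0676) and with median-of-ratios or total-read scaling (-0.09, adjusted p = 0.119 and 0.103). The filter left DNAJA4 out of the test; its mean level was 0.105 ± 0.00737 in the control libraries and 0.402 ± 0.0600 with the MMP9 hairpin (SD, n = 3).

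In class B, 3 of 7 tested genes rose and 3 fell, 85.7% in all beside 57.5% of all tested genes. DNAJB1 (HSP40), the classic heat-inducible partner of HSP70, was 167, 190 and 186 in shControl and 160, 155 and 155 in shMMP9, and fell by 0.21 (SE 0.0542, adjusted p = 0.00456). DNAJB4, a close relative, was 14.9, 17.1 and 15.7 against 7.89, 11.3 and 11.3 and fell by 0.61 (SE 0.123, adjusted p = 8.62e-04). DNAJB5, a further relative, was 10.3, 11.2 and 10.3 against 4.94, 6.03 and 5.95 and fell by 0.81 (SE 0.107, adjusted p = 2.53e-05). DNAJB1, DNAJB4 and DNAJB5 belong to the same DNAJB1-like subgroup. In none of them did the groups overlap, and the same held for 62.7% of all tested genes. These are the 3 lower genes of the class, so the lack of overlap follows largely from their calls. DNAJB6 and DNAJB2, which hold aggregation-prone proteins in solution, rose by 0.27 (adjusted p = 3.17e-04) and 0.28 (adjusted p = 0.00266). DNAJB12, anchored in the endoplasmic reticulum membrane, was higher by 0.19 (adjusted p = 0.0199), a call lost without shControl replicate 1 (adjusted p = 0.0524) and without shMMP9 replicate 3 (adjusted p = 0.0636). DNAJB14, its paralogue, was not called (0.10), but reached an adjusted p of 0.0349 without shControl replicate 1, at a change of 0.18.

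Class C is a loose group of proteins joined by the J domain. Of the 26 genes taken by symbol 3 rose and 6 fell, 34.6% in all beside the background of 57.5%. These counts include the readthrough DNAJC25-GNG10 and, among the lower genes, the noncoding DNAJC3-DT. With either other scaling the split was 4 higher and 3 lower. DNAJC7 (TPR2), which binds HSP70 and HSP90 and has the highest level per kilobase in the class, was 140, 142 and 131 in shControl and 116, 116 and 114 in shMMP9 and fell by 0.25 (SE 0.0488, adjusted p = 6.08e-04). Its exons overlap CNP and NKIRAS2 on the opposite strand. DNAJC14 fell by 0.26 and shares 27.9% of its 50-base stretches with other genes, and DNAJC1, of the endoplasmic reticulum, rose by 0.35. The noncoding DNAJC3-DT fell by 0.45 while its protein-coding neighbour DNAJC3, which the rule leaves out, rose by 0.97, both on chromosome 13. DNAJC25-GNG10 was not called (-0.18), and 93.4% of its 50-base stretches occur in other genes.

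The other calls in class C lay near the threshold, and each was lost on leaving out any of several single libraries. DNAJC5, the cysteine string protein of secretory vesicles, was lower by -0.19, with adjusted p of 0.0662, 0.0599 and 0.0760 without shControl replicates 2 and 3 and shMMP9 replicate 1. DNAJC19, of the mitochondrial import motor, was lower by -0.21, with adjusted p of 0.0564, 0.0785, 0.129 and 0.0748 without shControl replicates 1 and 3 and shMMP9 replicates 1 and 3. DNAJC17 was lower by -0.24, with adjusted p of 0.115, 0.0502, 0.0794 and 0.105 without shControl replicates 2 and 3 and shMMP9 replicates 2 and 3. Each of these 3 calls was also lost with both other scalings. GCHFR overlaps 30.7% of the exon bases of DNAJC17 on the opposite strand. DNAJC30, a mitochondrial protein, was higher by 0.28, with adjusted p of 0.0650, 0.0533 and 0.100 without shControl replicates 1 and 3 and shMMP9 replicate 3. DNAJC28 was higher by 0.39 at a level of 1.51 or less, with adjusted p of 0.187, 0.109 and 0.155 without shControl replicate 2 and shMMP9 replicates 1 and 2. Its size follows the added constant, and the call was also lost with a pseudocount of 0.25 (0.64, adjusted p = 0.0504) and with limma-voom (0.85, adjusted p = 0.0519); with a pseudocount of 4 the change was 0.15. In the other direction, DNAJC11 (-0.16, adjusted p = 0.0162) and DNAJC13 (0.17, adjusted p = 0.0119) were called without shControl replicate 1. DNAJC18 was called without shControl replicate 2 (-0.26, adjusted p = 0.0328) and without shMMP9 replicate 2 (-0.29, adjusted p = 0.0196). DNAJC13 was also called with both other scalings (0.20).

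Small heat shock proteins hold unfolded clients without ATP. HSPB1 (HSP27), by far the most abundant of them, was 217, 238 and 230 in shControl and 272, 251 and 302 in shMMP9. The groups did not overlap, and it rose by 0.26 (SE 0.0640, adjusted p = 0.00322), from 216 to 259 per kilobase. HSPB8, which works with BAG3 in selective autophagy, was 13.0, 10.2 and 10.5 against 8.43, 8.45 and 8.46 and fell by 0.37 (SE 0.104, adjusted p = 0.00845). HSPB6 rose by 0.49 (adjusted p = 0.00482) at a level of 1.07 or less, so that its size follows the added constant (0.88 with a pseudocount of 0.25, 0.18 with 4, 1.20 with limma-voom). AC002398.2 overlaps 42.5% of the exon bases of HSPB6 on the opposite strand. HSPB11 was not called (0.05), and HSPB9 was not tested, at 0.207 ± 0.0757 against 0.352 ± 0.145 (SD, n = 3).

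BAG proteins bind the ATPase domain of HSP70 and release its nucleotide. Of the 6 genes 3 rose and 2 fell, beside 25.0% and 32.5% of all tested genes. BAG3, heat-inducible and the partner of HSPB8, was 88.4, 98.1 and 94.0 in shControl and 113, 111 and 119 in shMMP9 and rose by 0.29 (SE 0.0534, adjusted p = 4.35e-04). BAG1, which couples HSP70 to the proteasome, rose by 0.31 (adjusted p = 9.48e-04), and BAG5 rose by 0.30 (adjusted p = 9.62e-04). BAG6, which guards tail-anchored and mislocalised membrane proteins and has the highest level of the family per kilobase, was 276, 328 and 305 against 253, 239 and 264. Its groups did not overlap and it fell by 0.26 (SE 0.0625, adjusted p = 0.00280). BAG2, an inhibitor of the ubiquitin ligase STUB1, fell by 0.32 (adjusted p = 0.00110), but 42.7% of its exon bases overlap RAB23 on the opposite strand. BAG4 was not called (0.11, adjusted p = 0.230).

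Read across the families, 7 of the 15 members listed as heat-inducible rose and 7 fell. That list holds HSPA8, which is mainly constitutive; without it 7 rose and 6 fell. HSPH1, HSPA6, DNAJA1, HSPE1, BAG3, HSPB1 and HSP90AA1 were the higher genes, and DNAJB4, HSPA4L, HSPA1B, HSPB8, HSPA8, HSPD1 and DNAJB1 the lower ones, with HSPA1A not called. The 93.3% called compares with 57.5% of all tested genes, and the split was the same under both other scalings, although the HSP90AA1 call was lost without single libraries as given above. The list was drawn up with earlier results of these data known, so the comparison is a description with no test. Level was not matched in it either, and several heat-inducible members lie below a mean of 150. Of the 19 members at a mean of 150 or more, 73.7% were called, against 68.7% of all tested genes at that level. At that level 5.26% of members passed 1.5-fold, against 18.7% of all tested genes. By place, 2 of the 8 mitochondrial members rose and 4 fell (2 and 2 with the other scalings). Of the 8 members of the endoplasmic reticulum 3 rose and 1 fell. Of the remaining 58 tested 12 rose and 19 fell (20.7% and 32.8%). Among all tested genes 25.0% were higher and 32.5% lower.

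Genes outside the rule that work with these chaperones were as mixed. Of 55 tested network genes 13 rose and 18 fell (56.4% called, beside 57.5%), and with the other scalings 16 rose and 13 or 14 fell. Among 23 HSP90 co-chaperones and adaptors 6 rose and 8 fell, beside 25.0% and 32.5% of all tested genes. STUB1 (CHIP), the ligase that ubiquitinates chaperone clients, fell by 0.52, PTGES3 (p23), which closes the HSP90 cycle, by 0.36, SGTB by 0.54 and TOMM34 by 0.28. Among 14 CCT partners 4 rose and 3 fell, beside 25.0% and 32.5% of all tested genes. PFDN5 and UXT, of the prefoldin family, rose by 0.57 and 0.40, and PFDN1 and URI1 fell by 0.32 and 0.29.

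Of 9 mitochondrial chaperones and proteases outside the rule 1 rose and 5 fell, beside 25.0% and 32.5% of all tested genes; the split was 2 and 3 with median-of-ratios scaling and 2 and 4 with total-read scaling. TRAP1, the mitochondrial HSP90, was 305, 359 and 348 in shControl and 170, 173 and 177 in shMMP9 and fell by 0.95 (SE 0.0595, adjusted p = 1.79e-08), more than any member. LONP1, a matrix protease, fell by 0.48, GRPEL1, the exchange factor of HSPA9, by 0.33 and HTRA2 by 0.18. HSCB, a J-protein of iron-sulphur cluster assembly, rose by 0.33 (adjusted p = 0.0130). TRAP1 thus moved with HSPA9 and HSPD1, which fell, and against HSPE1, which rose.

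Among 9 other regulators and targets of heat shock factors 2 rose and 2 fell (44.4% called, beside 57.5%), all 4 past 1.5-fold. HSBP1, which binds the trimers of HSF1, was 149, 121 and 121 in shControl and 260, 259 and 235 in shMMP9 and rose by 0.95. CRYAB, the small heat shock protein HSPB5 that the rule does not match, was 0.143, 0.0650 and 0.0747 against 1.98, 2.22 and 2.48, from 2 reads in the lowest library, and rose by 1.56. SQSTM1 (p62), the autophagy receptor, was 1425, 1540 and 1561 against 602, 592 and 630 and fell by 1.31, and HMOX1, a haem-degrading stress enzyme, fell by 0.84. Of the 7 chaperones of the endoplasmic reticulum that were kept for comparison, 5 rose and none fell, beside 25.0% and 32.5% of all tested genes: DNAJC3 (0.97), DNAJB11 (0.56), HYOU1 (0.52), HSPA5 (0.37) and HSP90B1 (0.25), with DNAJB9 (-0.03) and DNAJC10 (-0.16) not called. The difference between that list and the cytosolic members was not tested.

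**Figure D5:**
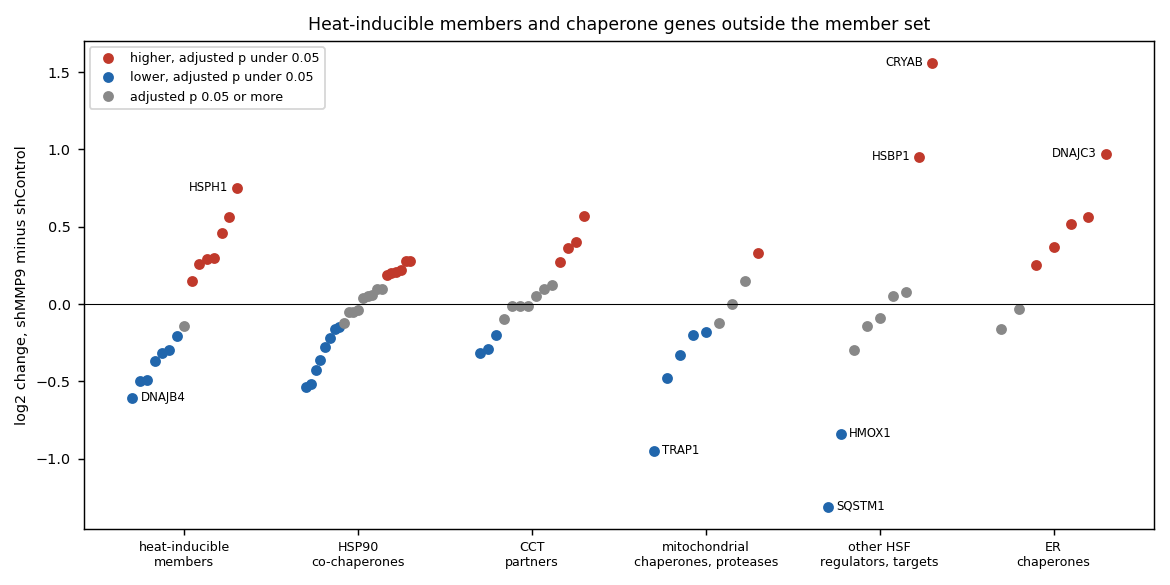
Log2 change (shMMP9 minus shControl) of the 15 heat-inducible members and of chaperone genes outside the member set, each point 1 tested gene, coloured by its call. The heat-inducible members spread to both sides of 0, TRAP1 (-0.95), SQSTM1 (-1.31) and CRYAB (1.56) lie beyond every member, and the called chaperones of the endoplasmic reticulum are all above 0.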

How the data were processed

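Total RNA of 6 A375 libraries was sequenced, and the labels gave each library's group. The submitters' processing notes name STAR 2.6.1d, Partek and hg38. How reads were counted, with which annotation, strand setting and filter, is "not given in the sources used here". Values in the deposited table are on a log2 scale; they show log2(scaled count + 1), with an upper quartile of 45.3 to 45.4 in each library. Dividing by the value of 1 read gave 64.58% to 67.73% of values within 0.01 of a whole number, so reads are estimates and no count test was the main result. limma 3.58.1 (R 4.3.3, variance trend) was fitted to the log2 values of 17194 genes, those with 10 or more estimated reads (scaled to median depth) in 3 libraries and 15 in total; 1345 genes were removed. The fit was also run on simulated data with changes of 1.5-fold or more in genes with many reads. That run does not cover smaller changes or genes with few reads. Positions and exons came from GENCODE 29, which matched 18516 of 18539 symbols, and promoters from RefSeq (GRCh38.p14). Named with values in each library were members past 1.5-fold, the member with the highest mean level per kilobase in each family, HSF1, HSF2 and the heat-inducible members; of network genes, the 4 with the smallest adjusted p per list. Values per library of CCT4, CCT8 and the ratios, and TCP1, were added after their values were seen. Members and lists were chosen with earlier results of these data known. Alternatives were a replicate block, leaving out each library, 2 scalings, no filter, limma-voom, pseudocounts of 0.25 and 4, and no variance trend.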

Additional observations from a re-analysis of the deposited data

How the results depend on the processing

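Replicate numbers gave no sign of pairing: deviations of same-numbered libraries correlated at 0.04, -0.13 and -0.026. With a replicate block 15 members were higher and 22 lower (all genes 4211 and 5486, network genes 12 and 18), and HSP90AA1 (adjusted p = 0.114), DNAJC17 (0.0506), DNAJC19 (0.0516) and DNAJC28 (0.0588) lost their calls. Leaving out each library in turn gave 15 to 17 members higher and 21 to 26 lower, 3759 to 4511 and 4917 to 5714 of all genes, and 10 to 14 and 15 to 20 network genes. Between shControl libraries the chi-square per gene of estimated reads was 14.19 (replicates 1 and 2), 9.8 (1 and 3) and 4.06 (2 and 3). In shMMP9 it was 2.57 to 4.91, so shControl replicate 1 stood farthest from its group. HSF1 and HSPA1A were called only without that library. Over all 14 alternatives members ranged from 15 to 19 higher and 20 to 26 lower. No direction reversed for a member called in the main fit or in the alternative, and sign changes of uncalled members were not counted. Of the 41 called members 33 kept their call in all 14; the exceptions were DNAJA3, DNAJB12, DNAJC5, DNAJC17, DNAJC19, DNAJC28, DNAJC30 and HSP90AA1. With median-of-ratios and total-read scaling all genes split 5013 to 4875 and 4988 to 4898. Low reads limit HSPA6, HSPB6, CCT6B, DNAJC28 and CRYAB.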
